A study of Mus musculus with 21 samples.

Results

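Paneth cells sit at the base of the small intestinal crypts and release antimicrobial proteins from their granules, among them the α-defensins encoded by the Defa genes, lysozyme and lectins. Gut bacteria are known to induce part of this output, above all the Reg3 lectins, through signals such as interleukin 22 and Toll-like receptors, while much of the granule content is made whether or not bacteria are present. The comparison described here asked how the transcriptome of sorted Paneth cells differed when mice carrying a normal microbiota had been given antibiotics, with purified water to drink throughout. It used 7 of the 21 RNA-seq libraries of the series. Of these, 4 came from SPF mice given broad-spectrum antibiotics for the last 3 weeks (antibiotics group), and 3 came from SPF (specific pathogen free) mice without antibiotics (SPF group). Mice of both groups drank Milli-Q water for 7 weeks and carried no other treatment by the labels. The other 14 libraries were of germ-free mice on Milli-Q water (3 libraries) and of SPF, antibiotics and germ-free mice on water with 200 mM zinc sulfate by the labels (3, 4 and 4 libraries). All mice were C57BL/6J by the study's methods, and each library held RNA of Paneth cells sorted by FACS. Antibiotics reduce but need not remove the bacteria, and no count of bacteria was among the files used here. The labels give neither the agents beyond broad-spectrum nor the age or sex of the mice.

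The 7 libraries held between 12089481 and 16896714 counts, with 16876 to 18072 genes detected. The 6 Paneth cell markers took 25.1 to 35.7% of the counts, and the 28 α-defensin genes took 24.1 to 33.5%. Marker genes of other cells were present at low levels. Enterocyte markers took 0.0576 to 0.108% of the counts and goblet cell markers 1.04 to 1.56%. Immune cell markers took 0.00091 to 0.00194%, with 1 of 14 at 0 in all 7 libraries. Stromal markers took 0.000174 to 0.000394%, with 5 of 10 at 0 in all 7. Replicates of a group always differed by more than sampling noise, with a chi-square of at least 13.1 per gene.

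One SPF library, replicate 2, stood apart from the other libraries before any test. In it, 24 genes lay at least 8-fold above both other SPF libraries, and 18 of these also lay at least 8-fold above every antibiotics library. SPF replicates 1 and 3 each had 0 such genes. Car1, which encodes a carbonic anhydrase abundant in colon epithelium, was at 460.5 CPM (counts scaled to library size with TMM factors) in SPF replicate 2. It was at 0.0681 and 0 CPM in SPF replicates 1 and 3 and at 0, 0, 0.048 and 6.08 CPM after antibiotics. Retnlb, encoding an antimicrobial protein of goblet cells, was at 97.9 CPM in SPF replicate 2, 0.409 and 1.21 CPM in the other SPF libraries and 0.131 to 11.6 CPM after antibiotics. A list of colon epithelium markers, written after values of this library had been seen, summed to 605.8 CPM in SPF replicate 2 and to 24.2 to 42.1 CPM in the other 6 libraries. Of the 13 genes of that list in the annotation, 4 were at 0 in all 7 libraries. Results that rest on SPF replicate 2 are therefore given with and without it.

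After antibiotics, 26 of 13070 genes (0.199%) changed by edgeR's quasi-likelihood test at a threshold of 0.05 on Benjamini-Hochberg adjusted p-values. Of these, 6 rose (0.0459% of the genes tested) and 20 fell (0.153%). Reg3g and Reg3b had the lowest p-values and fell, as did Pdia2, Cfi and Mptx2, while Scgb2b7, Fcgbp, Id3, Dll4, Dll1 and Nlrc5 rose. Before adjustment 1062 genes had a p under 0.05, 463 higher (3.54%) and 599 lower (4.58%). The antibiotics libraries did not overlap the SPF libraries for 582 genes that were higher (4.45%) and 529 that were lower (4.05%). Among the 26 called genes, 22 did not overlap. The median log2 fold change over all genes tested was -0.00745. Without SPF replicate 2 there were 23 calls, of which 13 were among the 26. The count was 10 to 13 when 1 antibiotics library was left out, 58 without SPF replicate 1 and 83 without SPF replicate 3. Of the 26 genes, 8 were called in every one of these 7 fits and in 9 further settings, namely Reg3g, Reg3b, Pdia2, Cfi, Scgb2b7, S100g, C1qtnf1 and Fcgbp. The sources used here do not say that replicates came from separate cages, so p-values measure the spread between these libraries. Of the 26 genes, 6 had under 90% of their 60-base stretches to themselves (Clca4a, Defa41, Gsdmc4, Mptx2, Scgb2b7 and Slc28a2), and 15 overlap a gene on the opposite strand. The sources used here do not give how the counts treated strand and shared reads, so levels of these genes are uncertain to that extent.

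**Figure D1:**
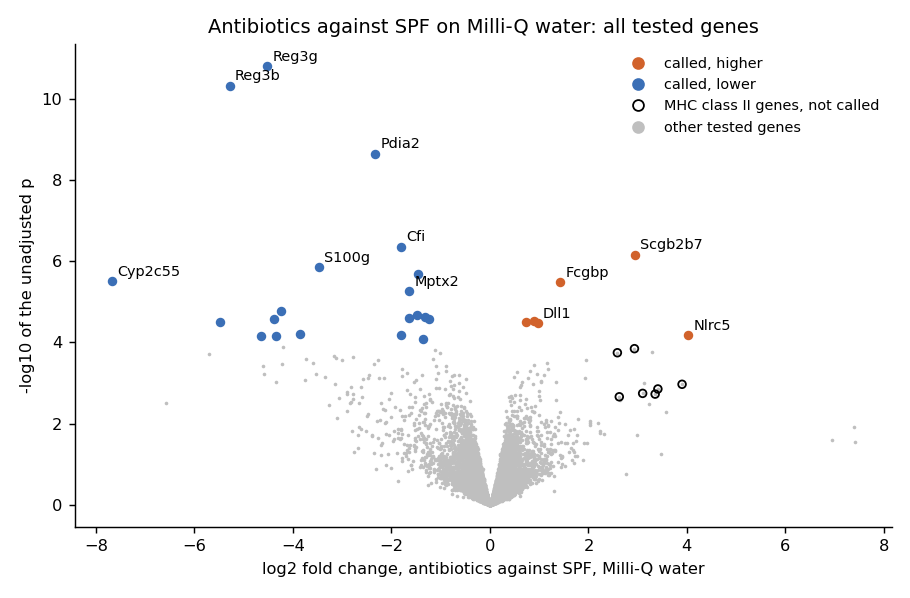
Each point is 1 of the 13070 genes tested, with its log2 fold change of antibiotics against SPF on Milli-Q water on the horizontal axis and the -log10 of its unadjusted p on the vertical axis. Coloured points are the 6 genes that rose and the 20 that fell, and open circles are 7 MHC class II genes, which lay at log2 fold changes of 2.59 to 3.90 without passing the threshold.

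Reg3g and Reg3b encode C-type lectins that kill mainly Gram-positive and Gram-negative bacteria, respectively, and are standard readouts of bacterial contact with the gut epithelium. Their genes lie near each other on chromosome 6 (GRCm39, Reg3b at 78347640 to 78350455 on the plus strand and Reg3g at 78443246 to 78445859 on the minus strand). The sequences around their transcription starts, 250 bases before to 50 after, are shown because these genes moved together. They are from RefSeq (GRCm38.p6), at chr6:78370635-78370934 on the plus strand for Reg3b and chr6:78468825-78469124 on the minus strand for Reg3g. Capitals mark matches to TTCNNNGAA, the core motif bound by STAT factors, which was searched on both strands.
Reg3b: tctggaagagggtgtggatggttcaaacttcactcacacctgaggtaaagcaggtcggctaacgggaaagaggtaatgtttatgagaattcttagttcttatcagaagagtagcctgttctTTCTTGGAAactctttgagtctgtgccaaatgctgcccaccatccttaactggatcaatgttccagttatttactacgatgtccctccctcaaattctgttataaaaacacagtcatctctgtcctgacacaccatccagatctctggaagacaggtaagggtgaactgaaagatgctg
Reg3g: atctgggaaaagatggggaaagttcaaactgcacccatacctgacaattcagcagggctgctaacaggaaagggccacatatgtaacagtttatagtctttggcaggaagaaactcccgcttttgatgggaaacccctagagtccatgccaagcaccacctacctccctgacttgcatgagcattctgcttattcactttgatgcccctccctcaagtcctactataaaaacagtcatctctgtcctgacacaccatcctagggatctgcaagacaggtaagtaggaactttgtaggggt
The motif occurred 1 time in the Reg3b window, starting 129 bases before the transcription start, and 0 times in that of Reg3g. It was found in 8.3% of all 32851 windows of this kind. Of the 20 genes that fell, 13 had a window in that table, and 3 of them (Reg3b, Slc28a2 and Sgk1) held the motif. A match describes the letters only.

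Reg3g stood at 414.1, 377.2 and 507.8 CPM in the SPF libraries and at 17.98, 15.9, 22.4 and 18.5 CPM after antibiotics. Each antibiotics library was far below each SPF library, and the fall was 23.1-fold (log2 fold change -4.53 ± 0.38 SE, edgeR adjusted p 2.04e-07). Reg3b stood at 88.9, 102.5 and 118.8 CPM in SPF and at 3.06, 4.13, 1.92 and 1.65 CPM after antibiotics. Its fall was the steeper of the pair, 39.1-fold (-5.29 ± 0.46 SE, edgeR adjusted p 3.14e-07). Neither call depended on SPF replicate 2, without which the log2 fold changes were -4.63 and -5.30. Of the 7 Reg genes listed, 5 were tested and these 2 were the ones called. Reg3a, a further member of the family, was at 0.613, 1.79 and 1.16 CPM in SPF and 0.131 to 0.551 CPM after antibiotics, without overlap but not called (-1.71 ± 0.88 SE, adjusted p 0.639).

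Pdia2, Cfi and C1qtnf1 also fell. Pdia2 (chromosome 17, 26414973 to 26418061), encoding a protein disulfide isomerase of secretory cells, fell 5.05-fold, from 78.6, 45.3 and 60.6 CPM in SPF to 11.5, 10.9, 14.1 and 12.1 CPM after antibiotics (-2.34 ± 0.25 SE, edgeR adjusted p 9.94e-06). Cfi, encoding complement factor I, a protease that inactivates complement proteins, fell 3.51-fold. It went from 27.5, 23.4 and 19.0 CPM to 6.21, 5.64, 7.83 and 6.71 CPM (edgeR adjusted p 0.00143). C1qtnf1, a secreted relative of complement C1q, stood at 14.8, 15.8 and 17.4 CPM in SPF and at 4.41, 4.53, 8.16 and 6.13 CPM after antibiotics (-1.46 ± 0.23 SE, edgeR adjusted p 0.00381). For all 3 genes the lowest SPF library was above the highest antibiotics library.

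Mptx2, encoding a mucosal pentraxin that is an abundant Paneth cell product, stood at 5321, 3557 and 4430 CPM in SPF and at 1154, 1295, 1643 and 1607 CPM after antibiotics. It fell 3.11-fold (-1.64 ± 0.28 SE, edgeR adjusted p 0.00728). It was the only 1 of 10 tested genes in a list of Paneth cell products other than α-defensins to change. The adjusted p passed 0.05 when antibiotics replicate 1 or 2 was left out (0.0538 and 0.054). Mptx2 shares sequence with Mptx1, and 85.9% of its 60-base stretches were found in no other gene's transcripts.

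The α-defensins as a whole did not differ detectably. They took 29.6 ± 4.90% of the counts in SPF (SD, n = 3) and 29.3 ± 3.70% after antibiotics (SD, n = 4), a difference of -0.37 percentage points (two-sided exact permutation p = 1, with 0.0571 the smallest that 4 against 3 allows). Leaving out SPF replicate 1 or 3, or antibiotics replicate 1 or 4, turned the sign of this difference. Of the 28 Defa genes, 20 were tested, and their median log2 fold change was -0.0934. Defa41 fell, from 36.0, 28.9 and 59.6 CPM to 14.0, 19.4, 20.02 and 17.4 CPM (-1.23 ± 0.24 SE, edgeR adjusted p 0.0218). It is a minor member, and reads shared with Defa34, Defa35, Defa36, Defa37 and Defa5 make its level uncertain, since 55.6% of its 60-base stretches were its own. The call was lost without any 1 of the antibiotics libraries or without SPF replicate 3 (adjusted p 0.0566 to 0.13). Defa34 had the next lowest p of those that were lower (-0.75 ± 0.21 SE, adjusted p 0.18), and Defa21 the lowest of those that were higher (0.47 ± 0.22 SE, adjusted p 0.599). Defa24, the most abundant member, stood at 117400 ± 29920 CPM in SPF (SD, n = 3) and 110200 ± 21800 CPM after antibiotics (SD, n = 4). Its log2 fold change was -0.09, with a 95% interval of -0.56 to 0.38.

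The other abundant granule genes were not called either. Lyz1 (lysozyme) had a log2 fold change of -0.23 ± 0.27 SE, Itln1 (the lectin intelectin) -0.34 ± 0.23, Ang4 (the antimicrobial ribonuclease angiogenin 4) -0.25 ± 0.23 and Mmp7, the protease that activates α-defensins, -0.37 ± 0.21. Their 95% intervals reached down to between -0.82 and -0.74 and up to between 0.07 and 0.31. Pnliprp2, a pancreatic lipase-related gene also made by Paneth cells, had the lowest p among those on the higher side of that list (0.24 ± 0.21 SE). The metallothioneins Mt1 and Mt2, which bind zinc, stood at 0.26 ± 0.31 and 0.82 ± 0.41 SE.

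S100g, Slc28a2, Ret and Sgk1 fell without overlap between the groups. S100g, encoding the calcium-binding protein calbindin-D9k, was at 5.52, 10.6 and 3.38 CPM in SPF and at 0.301, 0.787, 0.816 and 0.438 CPM after antibiotics. This 11.1-fold fall rests on low levels but was called in every setting tried (-3.48 ± 0.54 SE, edgeR adjusted p 0.00309). Enterocyte markers had a median log2 fold change of -1.25 in this comparison, without a call. The part of enterocytes in the fall of S100g was not tested. Slc28a2, a sodium-coupled nucleoside transporter, was at 9.40, 6.38 and 8.41 CPM and then at 3.21, 2.95, 3.27 and 3.41 CPM. Ret, the receptor kinase for GDNF-family ligands, was at 7.29, 6.38 and 6.62 CPM and then at 3.00, 2.03, 2.74 and 1.90 CPM. Sgk1, a kinase named for its induction by serum and glucocorticoids, was at 43.3, 17.8 and 17.3 CPM and then at 11.9, 5.38, 7.35 and 8.32 CPM. Their log2 fold changes were -1.32 ± 0.25, -1.48 ± 0.28 and -1.65 ± 0.32 SE, each at 0.0218 after edgeR's adjustment. These 3 calls were made in 2 to 4 of the 7 fits that leave out a library, including the fit without SPF replicate 2.

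**Figure D2:**
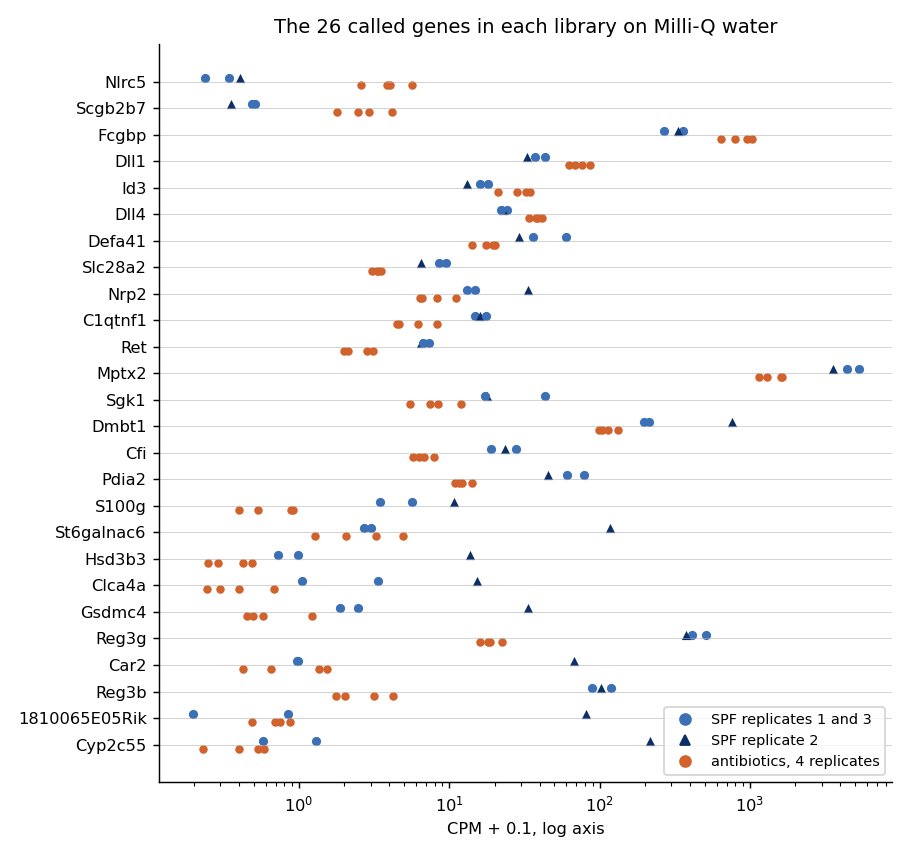
Levels of the 26 called genes (CPM + 0.1 on a log axis) in each library on Milli-Q water, with genes in order of log2 fold change. Triangles mark SPF replicate 2, which for Cyp2c55, 1810065E05Rik, Car2, Gsdmc4, Clca4a, Hsd3b3 and St6galnac6 lies far to the right of both other SPF libraries, while for Reg3g, Reg3b and Pdia2 all 3 SPF libraries lie together.

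A further 9 of the 20 lower genes lost their call without SPF replicate 2. Cyp2c55, a cytochrome P450, was at 217.2 CPM in that library but at 0.477 and 1.21 CPM in SPF replicates 1 and 3 and 0.131 to 0.486 CPM after antibiotics. Its log2 fold change of -7.67 ± 1.26 SE (edgeR adjusted p 0.00473) went to -1.31 without that library (adjusted p 1). Car2, a carbonic anhydrase, was at 67.7 CPM there and 0.87 to 0.886 CPM in the other SPF libraries, against 0.328 to 1.44 CPM after antibiotics. The same held for 1810065E05Rik (80.8 CPM against 0.0967 and 0.75) and for the sialyltransferase gene St6galnac6 (118 CPM against 2.61 and 2.93). Hsd3b3, of the 3β-hydroxysteroid dehydrogenase family, the gasdermin gene Gsdmc4 and the chloride channel regulator gene Clca4a were at 13.7, 33.5 and 15.1 CPM in SPF replicate 2. In the other SPF libraries they were at 0.629 to 3.24 CPM, and after antibiotics at 0.144 to 1.12 CPM. For these 3 genes SPF replicates 1 and 3 also lay above every antibiotics library. So did they for Dmbt1, a mucosal scavenger protein (197.0, 761.8 and 212.5 CPM in SPF, 98.7 to 132.3 CPM after antibiotics), and for Nrp2, a neuropilin receptor (14.7, 33.4 and 13.1 CPM in SPF, 6.30 to 10.99 CPM after antibiotics). Without SPF replicate 2 none of the 9 was called in edgeR's test (adjusted p 0.613 to 1), and for St6galnac6, Car2 and 1810065E05Rik the log2 fold change turned positive. Fut2, which adds the fucose that gut bacteria feed on, had the same pattern without a call (59.5 CPM in SPF replicate 2, 1.70 and 2.47 CPM in the others, 1.87 to 3.94 CPM after antibiotics). The germ-free comparison on Milli-Q water uses the same SPF libraries.

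Without SPF replicate 2, 10 genes outside the 26 passed the threshold. Lower were Angptl4 (-2.77), Pdk4 (-3.25), Irs2 (-1.28), Tsc22d3 (-1.04), Ddit4 (-0.97), Per1 (-1.25) and Nrn1 (-1.24 on the log2 scale), with edgeR adjusted p-values between 0.00627 and 0.0305. Angptl4 and Pdk4 encode an inhibitor of lipoprotein lipase and a kinase that restrains pyruvate oxidation, both active in fasting, and Irs2 an adaptor of the insulin receptor. Tsc22d3, Ddit4 and Per1 are known targets of the glucocorticoid receptor, as is Sgk1. Scgb2b10, which the remaining SPF libraries held at 0 and 0.0484 CPM, Tap2 (1.08) and Rasa4 (1.41) were higher, and edgeR's adjusted p-values for them were 0.00647, 0.0355 and 0.0361. With all 3 SPF libraries none of these 10 was called (adjusted p 0.0737 to 0.499). Angptl4 and Pdk4 were highest in SPF replicate 1, at 15.2 and 14.3 CPM, against 1.28 to 3.34 CPM in the other SPF libraries.

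Fcgbp, encoding a large mucus protein of goblet cells that binds the Fc part of IgG, was the clearest mucus gene to rise. It lies on chromosome 7, 27770661 to 27820287. Its levels were 359.6, 330.5 and 267.2 CPM in SPF and 1037, 798.8, 640.6 and 959.3 CPM after antibiotics, a 2.69-fold rise (1.43 ± 0.24 SE, edgeR adjusted p 0.00473), with no overlap. Zg16, a lectin of mucus that binds Gram-positive bacteria, stood at 82.3, 88.0 and 41.7 CPM in SPF and at 349.1, 246.4, 165.9 and 309.3 CPM after antibiotics, without a call (1.92 ± 0.50 SE, adjusted p 0.138). Zg16 was called in the fit of the 7 libraries (1.91, edgeR adjusted p 0.0103) and on zinc water (2.32, edgeR adjusted p 0.00853). Tff3, the goblet trefoil peptide, stood at 1278, 760.2 and 721.2 CPM and then at 1334 to 1603 CPM (0.62 ± 0.20 SE, adjusted p 0.326). Of the 15 mucus genes, all tested, 1 was called, 3 were higher and 4 lower at an unadjusted p under 0.05, and the median log2 fold change was 0.0248. Over all genes tested, 3.54% were higher and 4.58% lower at that p. The 4 that were lower, Retnlb, Gcnt3, Klk1 and Agr2, each had their highest level in SPF replicate 2 (for Agr2 3057 CPM, against 962.6 to 1311 CPM in the other 6 libraries). Without that library the median of the 15 was 0.482. Goblet cell markers summed to 9559, 11349 and 8059 CPM in SPF replicates 1, 2 and 3 and to 10146 to 10826 CPM after antibiotics. Without SPF replicate 2 the SPF sums thus lay below every antibiotics library. Spink4 was the largest part of each sum, at 4376 to 5965 CPM in SPF and 4369 to 5915 CPM after antibiotics. The study's methods describe the FACS-sorted Paneth cells as almost free of other cells. More cells of a type and more RNA per cell cannot be told apart in bulk samples, and this holds for each gene here that other cell types also express.

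The Notch ligands Dll1 and Dll4 rose together. Secretory cells of the crypt present these ligands to neighbouring stem cells, which need the signal to stay undifferentiated. Dll1 (chromosome 17, 15587276 to 15597134) went from 42.9, 32.8 and 37.3 CPM in SPF to 86.3, 62.1, 69.0 and 76.8 CPM after antibiotics (0.97 ± 0.19 SE, edgeR adjusted p 0.0221). Dll4 (chromosome 2, 119156170 to 119166443) went from 24.2, 22.5 and 21.9 CPM to 33.8, 37.5, 41.5 and 38.9 CPM (0.73 ± 0.14 SE, edgeR adjusted p 0.0218). Neither gene's groups overlapped. Without SPF replicate 2 the sizes were close (0.87 and 0.71) but neither passed the threshold (adjusted p 0.166 and 0.103). Each of the calls was made in 3 of the 7 fits that leave out a library, though not in the same 3. With scaling to library totals alone, neither was called (adjusted p 0.0688 for both). Of 25 niche and Notch genes, 19 were tested, these 2 were called and 3 more were higher at an unadjusted p under 0.05, against 0 lower. Those 3 were Neurl3, a ubiquitin ligase of the Neuralized type (0.40 ± 0.12 SE), the receptor Notch1 (0.40 ± 0.16) and the Notch target Hes1 (0.36 ± 0.16). The list's median log2 fold change was 0.308, against -0.00745 over all genes. At an unadjusted p under 0.05, 3.54% of all genes were higher and 4.58% lower. Mib1, which helps Notch ligands to be taken up, had the lowest p of those that were lower (-0.19 ± 0.17 SE).

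Id3, an inhibitor of basic helix-loop-helix transcription factors, rose from 17.99, 13.0 and 15.9 CPM to 28.2, 34.1, 20.9 and 32.3 CPM (0.89 ± 0.17 SE, edgeR adjusted p 0.0218), a call lost without SPF replicate 2 (0.76, adjusted p 0.189). The secretoglobin gene Scgb2b7 rose 7.70-fold from a low level, 0.409, 0.255 and 0.387 CPM in SPF to 1.70, 2.36, 4.03 and 2.82 CPM after antibiotics (2.95 ± 0.44 SE, edgeR adjusted p 0.00179). A relative, Scgb2b10, was at 0, 0.664 and 0.0484 CPM and then at 1.80 to 3.21 CPM, without a call with all libraries (adjusted p 0.0737). The secretoglobin genes share sequence, with 77.3 and 43.6% of 60-base stretches of Scgb2b7 and Scgb2b10 found in no other gene, so that reads may have been exchanged between members.

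**Figure D3:**
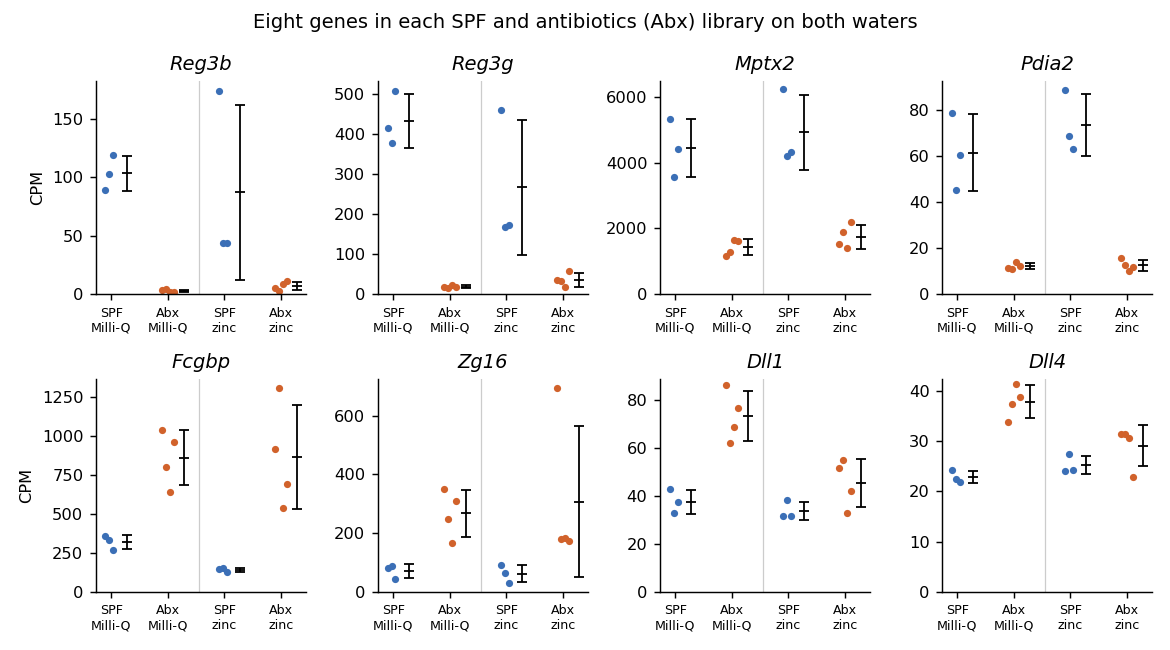
CPM of Reg3b, Reg3g, Mptx2, Pdia2, Fcgbp, Zg16, Dll1 and Dll4 in each SPF (blue) and antibiotics (Abx, orange) library on Milli-Q and on zinc water, with the mean and SD of each group in black beside the points. On Milli-Q water the antibiotics libraries lie apart from the SPF libraries for all 8 genes, while on zinc water Dll1 and Dll4 overlap between the groups.

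Nlrc5 rose, and 7 MHC class II genes were higher after antibiotics in every library but were called only in some fits. MHC class II molecules present peptides to CD4 T cells. Besides professional immune cells, gut epithelium can make them in response to interferon γ through the transactivator Ciita, while Nlrc5 is the matching transactivator of class I genes. Nlrc5 (chromosome 8, 95160984 to 95253900) rose 16.3-fold, from 0.136, 0.306 and 0.242 CPM to 3.96, 3.74, 5.57 and 2.48 CPM (4.02 ± 0.83 SE, edgeR adjusted p 0.0359). The call was lost without any 1 of the 7 libraries (adjusted p 0.0747 to 0.144), while the fold change stayed as large without SPF replicate 2 (4.26).

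The class II genes lay at similar folds in all 4 antibiotics libraries. Cd74, the invariant chain that guides class II molecules through the cell, was at 9.68, 53.4 and 13.2 CPM in SPF and at 258.6, 283.0, 242.7 and 259.8 CPM after antibiotics. H2-Ab1 was at 5.79, 26.1 and 4.35 CPM and then at 100, 101.9, 106.9 and 109.3 CPM. H2-Eb1 was at 1.77, 16.5 and 2.08 CPM and then at 71.3, 78.6, 72.9 and 70.0 CPM, and H2-Aa at 0.886, 9.29 and 0.629 CPM and then at 49.4, 59.9, 58.9 and 52.0 CPM. The peptide-loading genes H2-DMa and H2-DMb1 stood at 13.1 to 17.8 and 9.77 to 11.2 CPM after antibiotics, against 0.774 to 4.39 CPM in SPF. Ciita was at 0.409, 2.09 and 1.11 CPM in SPF and at 8.91, 6.30, 13.9 and 8.76 CPM after antibiotics. SPF replicate 2 was the highest SPF library for all 7 genes, yet below every antibiotics library.

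In the fit of all 21 libraries 0 of these 7 genes passed the threshold (log2 fold changes 2.59 to 3.90, edgeR adjusted p 0.0666 to 0.228), although all 7 had an unadjusted p under 0.05. In the fit of only these 7 libraries edgeR called 30 of 12821 genes, 19 higher and 11 lower, and all 7 class II genes were among them (adjusted p 0.000946 to 0.0198). DESeq2 and limma-voom on all libraries each called 2 of them. The all-library fit shares 1 estimate of spread over the 6 groups, and class II levels varied widely within other groups. Cd74 was at 2.56, 15.2, 66.2 and 189.0 CPM in the antibiotics libraries on zinc water, at 9.07, 21.8 and 190.9 CPM in germ-free mice on Milli-Q water and at 24.1 to 48.4 CPM in SPF on zinc water. Of 10 class II presentation genes listed, 9 were tested. The protease gene Ctss, the lowest in p of those that were lower, did not differ detectably (-0.10 ± 0.21 SE).

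**Figure D4:**
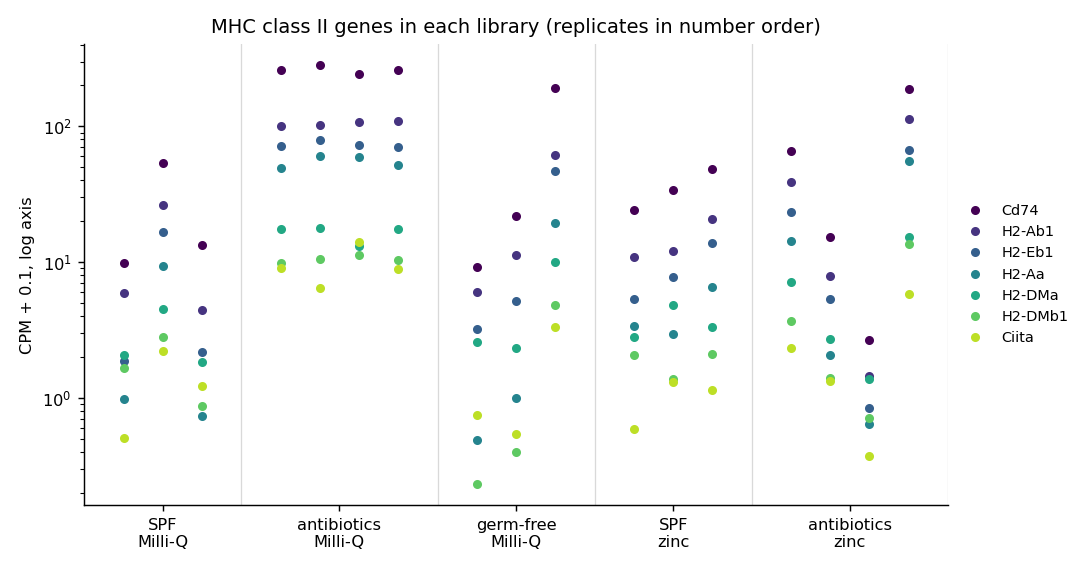
CPM + 0.1 (log axis) of 7 MHC class II genes in every SPF and antibiotics library on both waters and every germ-free library on Milli-Q water, 1 column of points per library. The 4 antibiotics libraries on Milli-Q water lie close together, with Cd74 at 242.7 to 283.0 CPM, while those on zinc water spread from 2.56 to 189.0 CPM.

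Immune cell markers were at low levels in both groups. Ptprc (CD45), present on all white blood cells, was at 1.09, 1.43 and 1.21 CPM in SPF and at 0.9, 0.721, 0.911 and 1.36 CPM after antibiotics. Itgax, a dendritic cell marker, was at 0.048 CPM in 1 antibiotics library and 0 in the other 6. Itgam, a marker of myeloid cells, was at 0.817, 0.815 and 0.531 CPM in SPF and at 1.401, 0.917, 0.959 and 1.312 CPM after antibiotics, without overlap but not called. Gzma, Gzmb and Cd52, of lymphoid cells, were at 0 in all 3 SPF libraries and at up to 0.59, 0.197 and 0.131 CPM after antibiotics. The 14 immune markers summed to 7.05 to 12.9 CPM in SPF and 6.80 to 15.3 CPM after antibiotics. Lyz2 was most of each sum, at 4.84 to 10.8 CPM in SPF and 3.80 to 12.1 CPM after antibiotics. The sums therefore say little of the other immune markers. Only 3 of the 14 had enough counts to be tested, 0 were called and their median log2 fold change was 0.324. The part of immune cells in the class II levels was not tested. Tuft cell markers summed to 216 to 285 CPM in SPF and 256.5 to 420 CPM after antibiotics, with 1 of 7 tested markers, Sh2d6, higher at an unadjusted p under 0.05.

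Some class I and interferon genes were higher at smaller sizes. Of 18 class I presentation genes, a list written after class II values had been seen, 0 were called, while 7 were higher and 1 lower at an unadjusted p under 0.05. Over all genes tested the shares at that p were 3.54% higher and 4.58% lower. The immunoproteasome gene Psmb8 was at 11.9, 14.2 and 8.12 CPM in SPF and at 26.1, 29.1, 29.1 and 30.4 CPM after antibiotics (1.33 ± 0.35 SE, adjusted p 0.146). The peptide transporter gene Tap1 was at 9.88, 9.40 and 8.85 CPM and then at 17.1, 22.9, 20.3 and 16.4 CPM (1.03 ± 0.27 SE, adjusted p 0.146). In the fit of the 7 libraries Psmb8, Tap1 and Psmb9 were called, and so was Ifitm3 of the interferon list (edgeR adjusted p 0.00742). Of 34 interferon-stimulated genes 27 were tested and 0 called. Here 7 were higher and 1 lower at an unadjusted p under 0.05, and the median log2 fold change was 0.378. Without SPF replicate 2, 30 of them were tested, 0 were called and the median was 0.739. Ifitm3, which restrains virus entry, was at 25.0, 25.99 and 22.7 CPM and then at 43.1, 53.6, 52.1 and 41.6 CPM (0.95 ± 0.24 SE, adjusted p 0.131). Ifit2 had the lowest p of those that were lower (-1.79 ± 0.71 SE). For Psmb8, Tap1 and Ifitm3 every antibiotics library was above every SPF library. On zinc water the groups overlapped for these genes, at log2 fold changes of 0.19, -0.07 and -0.08. There the interferon list had a median of -0.312 with 0 called. The class I list had a median of 0.0163 on zinc water, with 1 called higher and 1 lower.

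The promoters of H2-Aa and H2-Eb1 are shown because these genes stood at like folds and lie on opposite strands of chromosome 17. In the annotation (GRCm39) H2-Aa, at 34493404 to 34506798, and H2-Eb1, at 34504236 to 34535648, overlap, so that without known strand handling reads of the shared stretch cannot be assigned to either gene. Both promoter sequences are from RefSeq (GRCm38.p6), at chr17:34287774-34288073 on the minus strand and chr17:34305617-34305916 on the plus strand, 250 bases before to 50 after the transcription start. Capitals mark matches on either strand to CTGATTGG, the Y box at which NF-Y binds beside the Ciita-dependent complex.
H2-Aa: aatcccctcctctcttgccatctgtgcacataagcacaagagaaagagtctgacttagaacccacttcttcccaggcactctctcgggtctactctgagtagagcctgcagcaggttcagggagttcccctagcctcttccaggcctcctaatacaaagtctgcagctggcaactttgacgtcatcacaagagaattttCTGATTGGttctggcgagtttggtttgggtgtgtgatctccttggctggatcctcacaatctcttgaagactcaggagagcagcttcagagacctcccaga
H2-Eb1: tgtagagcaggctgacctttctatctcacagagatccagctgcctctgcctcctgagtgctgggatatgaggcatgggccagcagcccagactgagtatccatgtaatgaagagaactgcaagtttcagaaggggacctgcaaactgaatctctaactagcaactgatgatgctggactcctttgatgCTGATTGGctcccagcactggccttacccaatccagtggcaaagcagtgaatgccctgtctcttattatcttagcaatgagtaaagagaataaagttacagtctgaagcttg
Each window held the motif 1 time, starting 51 and 62 bases before the transcription start. It was found in 4.1% of all 32851 windows. Of the 20 genes that fell, 1 of the 13 with a window (Cyp2c55) held it, and of the 6 that rose, 0 of 5. Matches were looked up for no other class II gene, so they say nothing of the class II list.

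Among the remaining gene groups few calls were made, and the genes with the lowest p in each direction are given. Over all genes, 3.54% were higher and 4.58% lower at an unadjusted p under 0.05. List counts at that p, here and in the following paragraphs, stand beside these shares. In the list of 22 genes induced by colonisation, 14 were tested. Gsdmc4 was the 1 that fell, with a call that rests on SPF replicate 2, and Nos2, the inducible nitric oxide synthase, was the first of those that were higher (0.62, unadjusted p 0.184). In all, 5 of the list were lower and 0 higher at an unadjusted p under 0.05. Its median log2 fold change was -0.0782, and without SPF replicate 2 it was 0.26 with 0 calls. Of 30 tested genes of microbial sensing and NF-κB, 0 were called. The kinase gene Irak4 (-0.48 ± 0.17 SE) and the NF-κB subunit gene Relb (0.46 ± 0.20 SE) came first in each direction. In the list for interleukin 22, interleukin 6 and STAT3, 0 of 13 were called, with Jak2 (-0.28 ± 0.13 SE) first of the lower. Of 22 glycan synthesis genes St6galnac6 was the 1 call, and 7 in all were lower at an unadjusted p under 0.05. Their median log2 fold change was -0.344, and without SPF replicate 2 it was -0.0389 with 0 calls. St6galnac2 was first of those that were higher (0.59, unadjusted p 0.0801).

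Metabolic genes were called in no list. Of 22 tested genes of ketogenesis and fatty acid oxidation, 6 were lower at an unadjusted p under 0.05. Pdk4 was at 14.3, 1.58 and 2.76 CPM in SPF and 0.301 to 1.51 CPM after antibiotics (-2.78 ± 0.64 SE, adjusted p 0.0866), with SPF replicate 1 the highest. Hadha, a subunit of the mitochondrial trifunctional protein, was first of those that were higher (0.16 ± 0.12 SE). For bile acid and xenobiotic genes 3 of 15 were lower at an unadjusted p under 0.05, Cyp3a11 first (-2.85 ± 0.86 SE) and Abcc2 first of those that were higher (0.20 ± 0.21 SE). The median log2 fold change of these 15 was -0.257, and without SPF replicate 2 it was 0.00745. The cholesterol genes Fdft1 and Nsdhl stood at 0.41 ± 0.17 and -0.32 ± 0.17 SE, and the aryl hydrocarbon receptor genes Ahr and Tiparp at -0.27 ± 0.22 and 0.06 ± 0.18 SE. Enterocyte markers, which encode digestive enzymes and lipid carriers, were not called in any of 18 cases. Yet 5 were lower at an unadjusted p under 0.05, and the median log2 fold change was -1.25, or -0.72 without SPF replicate 2. Their sums were 519.5 to 786.4 CPM in SPF and 514.9 to 620.8 CPM after antibiotics. Mgam was the largest part of each sum, at 136.5 to 217.1 CPM in SPF and 170.3 to 267.6 CPM after antibiotics. The sums therefore say little of the less abundant enterocyte markers.

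Clock genes set the daily rhythm of transcription. Of 17 tested, 0 were called, while 5 were lower and 0 higher at an unadjusted p under 0.05. Among those lower, Cry1, Per2, Cry2 and Per1 lay between -0.80 and -0.59 on the log2 scale (adjusted p 0.353 to 0.499). Nr1d1 had the lowest p of those that were higher (0.61, unadjusted p 0.0786). The hour at which cells were taken is not in the labels. Zinc-handling genes gave 0 calls of 24, with the manganese exporter Slc30a10 first of the lower (-4.58 ± 1.16 SE) and Mt2 first of the higher. Among the Milli-Q libraries Slc30a10 was high in SPF replicate 2 only. Slc30a1, the main zinc exporter, stood at 5.72, 6.54 and 4.88 CPM in SPF and at 1.85, 2.56, 2.59 and 3.65 CPM after antibiotics (-1.10 ± 0.28 SE, adjusted p 0.138). On zinc water Slc30a10 was lower after antibiotics without overlap and was called (-3.67, edgeR adjusted p 0.0328).

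Secretory lineage transcription factors gave 0 calls of 25, with Ehf (-0.54 ± 0.18 SE) and Neurog3, the determinant of enteroendocrine cells (1.18 ± 0.43 SE), first in each direction. Immediate early genes, which respond to handling within minutes, gave 0 calls of 18. Of these 5 were higher and 1 lower at an unadjusted p under 0.05, with Jund (0.77 ± 0.20 SE) and Klf6 (-0.73 ± 0.19 SE) first. For the unfolded protein response it was 0 of 26, with Herpud1 (-0.45 ± 0.18 SE) and Atf4 (0.34 ± 0.15 SE) first. For reactive oxygen and nitric oxide it was 0 of 9, with Noxo1 (0.61 ± 0.24 SE) and Nox1 (-0.77 ± 0.49 SE) first. For the cell cycle 0 of 26 genes passed even an unadjusted p under 0.05, with Mcm7 (0.26 ± 0.15 SE) and Ccne2 (-0.49 ± 0.31 SE) first. Among 7 tested mitochondrially encoded genes none did either, with mt-Nd4 at 0.27 ± 0.20 and mt-Nd5 at -0.17 ± 0.26 SE.

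The same antibiotics treatment on zinc water shares no library with the comparison on Milli-Q water. There, 622 genes rose (4.76%) and 550 fell (4.21%) of the 13070. Of 18 enterocyte markers, 16 were called lower on zinc water, with a median log2 fold change of -2.65. Their sums were 1174 to 2135 CPM in SPF and 544 to 835 CPM after antibiotics on that water. The part of enterocyte RNA in the agreement between the waters was not tested. Of the 26 genes called on Milli-Q water, 23 had the same direction on zinc water, and 14 were called there in that direction, 11 of the 20 that fell and 3 of the 6 that rose. None was called in the opposite direction. Reg3g fell by 2.90 and Reg3b by 3.64 on the log2 scale, Pdia2 by 2.55, Mptx2 by 1.49, S100g by 2.74, and Fcgbp was higher by 2.63. The 9 lower genes whose call was lost without SPF replicate 2 were the 9 not called on zinc water, and Dll1, Dll4 and Nlrc5 were not called there either (log2 fold changes 0.43, 0.21 and -0.03). Of those 9, Clca4a (-2.40, edgeR adjusted p 0.0618) and Nrp2 (-0.64, adjusted p 0.158) were lower on zinc water without overlap, while the others overlapped there. Clca4a was also at -2.76 on Milli-Q water without SPF replicate 2. SPF zinc replicate 1 held 6228 counts of Xist, the RNA made from the inactive X chromosome, against 0 to 34 in the other 20 libraries, and without it 573 genes were called on zinc water in place of 1172. Across all 13070 genes the log2 fold changes on both waters had a Pearson r of 0.18 and a Spearman rho of 0.0134, given as a description over genes, which are not independent.

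**Figure D5:**
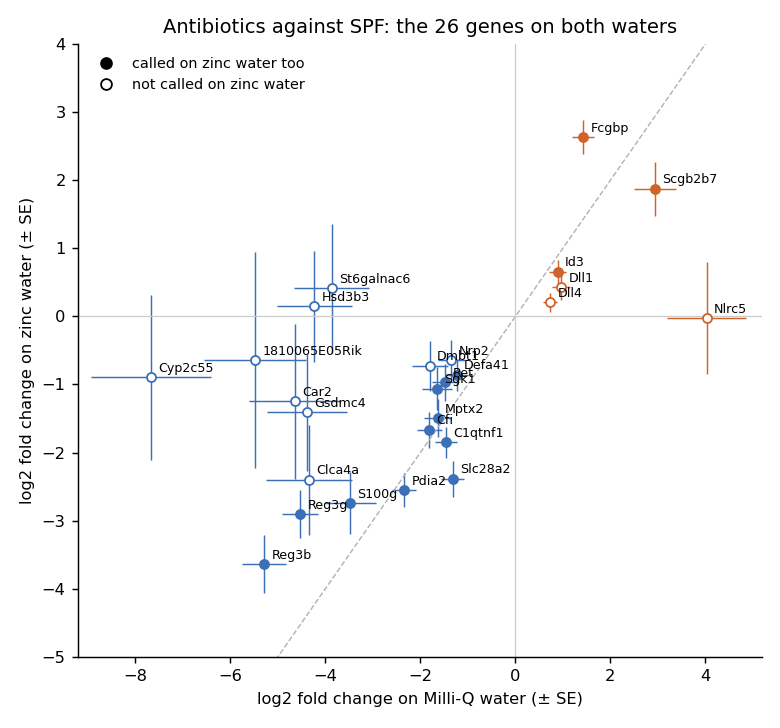
Log2 fold changes (± SE) of antibiotics against SPF for the 26 called genes, on Milli-Q water (horizontal) and on zinc water (vertical), with the dashed line at equal values. Filled points are the 14 genes called on zinc water too. Cyp2c55, Hsd3b3 and St6galnac6 lie far from the line, at -0.90 to 0.41 on zinc water.

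The difference of the antibiotics effect between the waters passed the threshold for 0 of 13070 genes (0%) in edgeR's test, with 2418 at an unadjusted p under 0.05. DESeq2 called 266 and limma-voom 473, and the fit of only the SPF and antibiotics libraries 249. For Reg3g the antibiotics effect was -4.53 on Milli-Q and -2.90 on zinc water, and for Fcgbp 1.43 and 2.63. By edgeR these differences had adjusted p-values of 0.119 and 0.114. For Irf1, an interferon-induced transcription factor, the effects were 0.50 and -0.44 (adjusted p of the difference 0.107). A p that misses the threshold does not show that the effects were alike.

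Germ-free mice, which never carried bacteria, gave 3169 calls against SPF on Milli-Q water (24.2% of the genes tested), with the same 3 SPF libraries as controls. The TMM factors were 0.63 to 0.66 in germ-free, 1.11 to 1.38 in SPF and 1.23 to 1.49 in antibiotics libraries on Milli-Q water. Germ-free values and calls therefore depend on the scaling, and with library totals 9338 genes were called against SPF. Beside the antibiotics effect of -4.53, Reg3g had a germ-free effect of -2.93, and beside -5.29 Reg3b had -4.32, both called. Cfi stood at -1.81 after antibiotics and at -1.25 in germ-free mice, C1qtnf1 at -1.46 and -1.11, Ret at -1.48 and -1.58, Slc28a2 at -1.32 and -1.37 and Scgb2b7 at 2.95 and 2.89, and all of these were called in both. Pdia2 stood at -2.34 and -0.37, S100g at -3.48 and -0.92, Sgk1 at -1.65 and 0.40, Fcgbp at 1.43 and -0.25, Dll1 at 0.97 and -0.08 and Dll4 at 0.73 and 0.10, and none of these 6 was called in germ-free mice.

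Compared directly, germ-free and antibiotics libraries on Milli-Q water differed in 2904 genes (22.2%). This comparison depends on the scaling too, with 10340 calls under library totals. Against the antibiotics group, germ-free mice were higher in Pdia2 (1.96 ± 0.25 SE, edgeR adjusted p 1.59e-05), Sgk1 (2.05 ± 0.32, adjusted p 0.000126), S100g (2.55 ± 0.61, adjusted p 0.00498), Defa41 (1.91 ± 0.24, adjusted p 1.12e-05) and Reg3g (1.60 ± 0.35, adjusted p 0.00278). They were lower in Fcgbp (-1.68 ± 0.24, adjusted p 4.73e-05), Dll1 (-1.04 ± 0.19, adjusted p 0.000635), Dll4 (-0.63 ± 0.15, adjusted p 0.00365), Nlrc5 (-2.57 ± 0.80, adjusted p 0.0246) and H2-Aa (-2.92 ± 1.02, edgeR adjusted p 0.0416). For Ret, Slc28a2, Cfi, C1qtnf1 and Scgb2b7 the difference was not called, with log2 values of -0.10 to 0.56.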

How the data were processed

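Total RNA of FACS-sorted Paneth cells was sequenced with a stranded mRNA kit, and the authors deposited raw counts per gene for 21 libraries. The submitters' processing notes name STAR 2.7.0a, FastQC 0.12.0, DESeq2 and the mm39 genome. The program that counted reads, its use of strand and its treatment of multimapping reads are not given in the sources used here. Groups came from the labels. From the deposited counts, genes kept by filterByExpr were fitted with edgeR 4.0.16 (glmQLFit, glmQLFTest, TMM scaling, 1 coefficient for each of 6 groups), with Benjamini-Hochberg adjustment and a threshold of 0.05. SE is the log2 fold change divided by the square root of F. The script was tested on simulated data. Alternatives were DESeq2 1.42.0, limma-voom 3.58.1, other scalings and filters, a replicate block, the 7 libraries alone and each library left out. The limma-voom fit used quality weights, so that libraries could differ in weight. Replicate numbers did not pair the libraries. The text names all called genes, fixed readouts, the genes of lowest p in each list and direction, and further list members chosen after their values were seen. Members and lists were chosen with earlier results of these data known. A few genes that this rule names are not reported here.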

Additional observations from a re-analysis of the deposited data

Results flagged for a closer look

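For 2 of 76 measures examined over the 4 antibiotics libraries, 1 library lay far from the other 3 by Dixon's criterion, and chance gives about 1 in 20. H2-DMa was at 13.1 CPM in antibiotics replicate 3, against 17.3 to 17.8 CPM in the other antibiotics libraries, and remained above the SPF libraries. Relb was at 25.9 CPM in antibiotics replicate 2, against 21.6 to 22.1 CPM in the others.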

How the results depend on the processing

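The count of 26 genes for antibiotics against SPF on Milli-Q water became 49 with DESeq2 (22 of the 26 among them and 4 without an adjusted p) and 406 with no filter on low counts, and lay between 10 and 83 when 1 library was left out. Of the 406, 356 were among the genes tested in the main fit. The prior degrees of freedom, edgeR's weight on the spread shared across genes, were infinite without the filter and 8.52 in the main fit. Replicate numbers did not pair the libraries, since deviations of same-numbered libraries correlated at -0.0954, -0.0752 and -0.0375, and with the replicate block 12 genes were called, all among the 26. With limma-voom 26 genes were called, of which 15 were shared and 12 were higher, and with the 7 libraries alone 30, of which 16 were shared and 19 were higher. Scaling to library totals gave 21 calls, 3 of them higher, with a median log2 fold change of 0.0709 over all genes. On zinc water the 1172 calls became 606 with library totals, 2640 with limma-voom, 2017 with only the libraries compared and 272 to 1059 with 1 library left out. The 0 calls for the difference between waters became 266 with DESeq2, 473 with limma-voom, 675 with no filter, 249 with only the libraries compared and 0 to 21 with 1 library left out. Germ-free against SPF gave 9338 calls with library totals and 1661 to 3253 with 1 library left out, and germ-free against antibiotics gave 10340 and 1566 to 2770. The difference in α-defensin share lay between -3.12 and 1.57 percentage points with 1 library left out, and was 0.438 and 1.57 without SPF replicates 1 and 3 and 1.02 and 0.293 without antibiotics replicates 1 and 4. With 1 library left out, log2 fold changes that turned sign ranged from -6.06 to 0.58 for 1810065E05Rik, -4.41 to 0.00698 for St6galnac6, -5.20 to 0.0434 for Car2, -3.72 to 2.48 for Retnlb, -0.0516 to 0.34 for Abcc2 and -0.30 to 0.0800 for Ctss, each turning without SPF replicate 2. They ranged from -0.39 to 0.0367 for Lyz1 (turning without SPF replicate 1), -0.29 to 0.0542 for Defa24 (turning without SPF replicate 1, or without antibiotics replicate 1 at 0.0247) and -0.0284 to 0.15 for Tiparp (turning without antibiotics replicate 4). Retnlb also turned with limma-voom (0.55). Of the other values of named genes under an alternative, 1055 kept direction and side of the threshold, 119 kept direction but lost the call and 40 gained one. The causes were not tested. Groups of 3 and 4 libraries limit the precision.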
